A study of Mus musculus with 5 samples.

Results

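Lungs of mice kept in hypoxia for 4 weeks were compared with lungs of wild-type mice, 1 array of pooled RNA on each side. These 2 arrays, chosen by their titles, were 2 of the 5 in the series. Both sides were FVB/N mice, an inbred strain, aged 8 weeks, with no transgene named. Right ventricular pressure, measured by heart catheter, was 50 ± 8 mmHg in the hypoxic mice, which the labels call elevated, and 30 ± 3 mmHg in the wild-type mice, which they call normal. The other 3 pools served as a second set of controls. SM22-tet-BMPR2delx4+ mice carry a mutant form of the receptor BMPR2, which doxycycline switches on from the smooth muscle promoter SM22. They were given no doxycycline in 1 pool (30 ± 3 mmHg) and doxycycline in another, called induced here (50 ± 8 mmHg). The SM22-rtTA pool, from mice with the activator but no mutant receptor named, received doxycycline and had 30 ± 3 mmHg. The titles of these 3 pools give 8 weeks without saying whether that is age or treatment. The source of every pool was whole lung. The oxygen level, the sex of the mice, the number of animals in a pool and the kind of error after each pressure are not stated. With 1 array a side there is no measure of spread, so differences are given as values with no test, and the number of arrays limits their precision.

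Chronic hypoxia constricts the small pulmonary arteries and thickens their muscular wall, and the resulting rise in pulmonary pressure loads the right ventricle. Cells sense the fall in oxygen through hydroxylases that mark the hypoxia-inducible factors (HIFs) for destruction, and stabilised HIFs raise genes of glucose uptake, glycolysis, angiogenesis and erythropoiesis. A whole lung holds alveolar, airway, vascular and blood cells, and its dissection can take along tissue from outside the lung. In RNA from whole tissue, fewer cells of a type and less RNA per cell cannot be told apart.

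Both pools had the RNA of lung. Sftpc, the surfactant protein of alveolar type 2 cells, had a scaled intensity of 11858 in the hypoxic and 13366 in the wild-type pool. Ager, an alveolar type 1 marker, stood at 6960 and 5390, and Scgb1a1, the secretory protein of airway club cells, at 11067 and 13192. The endothelial cadherin Cdh5 stood at 4546 and 4216. The wild-type pool carried in addition genes of kidney and adrenal gland. Miox, Slc34a1, Klk1 and Umod, defining genes of renal tubules, and Star, a defining gene of the adrenal cortex, were at the noise floor in all 4 other pools. The floor was a scaled intensity of 276, the 50th percentile of all scaled values, and lower values were raised to it. The hypoxic pool carried genes of squamous epithelium and of skeletal muscle. The female-specific transcript Xist, looked up after its values were seen, stood at 1403 in the hypoxic pool, 689 in the BMPR2delx4+ pool without doxycycline and 1845 in the induced pool, and at the floor in the wild-type and SM22-rtTA pools. The Y-linked gene Eif2s3y was at the floor in the hypoxic pool, at 394 in wild type, and at 366, 394 and 285 in the BMPR2delx4+ pool without doxycycline, the SM22-rtTA pool and the induced pool. The part of sex in the differences between the pools was not tested.

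Of 12393 genes, 8045 were above the floor in the hypoxic or the wild-type pool and are called measured, 6785 of them in both. At 2-fold, 123 genes were higher in hypoxia (1.53%) and 563 were lower (7.00%), so lower genes made up 82.1% of the differences. When the arrays were instead scaled to the genes of the lung structure lists, a choice made after the data were seen, the counts were 41 and 1010 and lower genes made up 96.1%. That scaling moved the median log2 ratio of all measured genes from 0.06 to -0.33. Which of the 2 pools stood apart for a gene was then read from the 3 other pools. The probe set with the highest mean stood for each gene, and where another probe set of it lay at the floor in both pools, that one has a log2 ratio of 0.

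Most of the lower genes were high in wild type alone. In 337 genes (4.19% of measured genes and 59.9% of the lower genes) wild type was at least 2-fold above each of the 4 other pools. Over these 337 genes the median log2 ratio of hypoxia to wild type was -2.04, that of hypoxia to the mean of the transgenic normal-pressure pools was 0, and that of wild type to the same mean was 2.06. The reverse pattern, hypoxia at least 2-fold below each of the 3 normal-pressure pools, held for 3 genes (0.0373%). Another 223 lower genes met neither rule, and in 203 of them wild type was still the highest of the 5 pools, a rank it had in 26.6% of measured genes. The choice of these classes used the same values, so the medians and ranks describe them and are no support for them. A gene chosen as lower in hypoxia than in wild type is more likely to have wild type highest.

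The higher genes were more mixed. In 49 genes (0.609% of measured genes and 39.8% of the higher genes) hypoxia was at least 2-fold above each of the 3 normal-pressure pools, with a median log2 ratio of 1.51 to wild type and 1.58 to the transgenic mean. In 18 genes (0.224%, and 14.6% of the higher genes) wild type was at least 2-fold below each of the 4 other pools, and their median ratio was 1.28 to wild type but -0.30 to the transgenic mean. Of the 56 remaining higher genes, 47 had wild type as the lowest of the 5 pools, a rank it had in 25.2% of measured genes. These genes were chosen for a wild-type value below the hypoxic one, which favours that rank in advance. Where the 3 normal-pressure pools lay within 1.5-fold of each other, 49 of 4752 genes were higher in hypoxia (1.03%) and 14 were lower (0.295%). Where they lay wider apart, 74 of 3293 genes were higher and 549 were lower. Wild type is 1 of these 3 pools and also the divisor of the ratio. The split by closeness therefore sets aside genes in which wild type stood apart, so these counts describe the split and are no support.

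**Figure D1:**
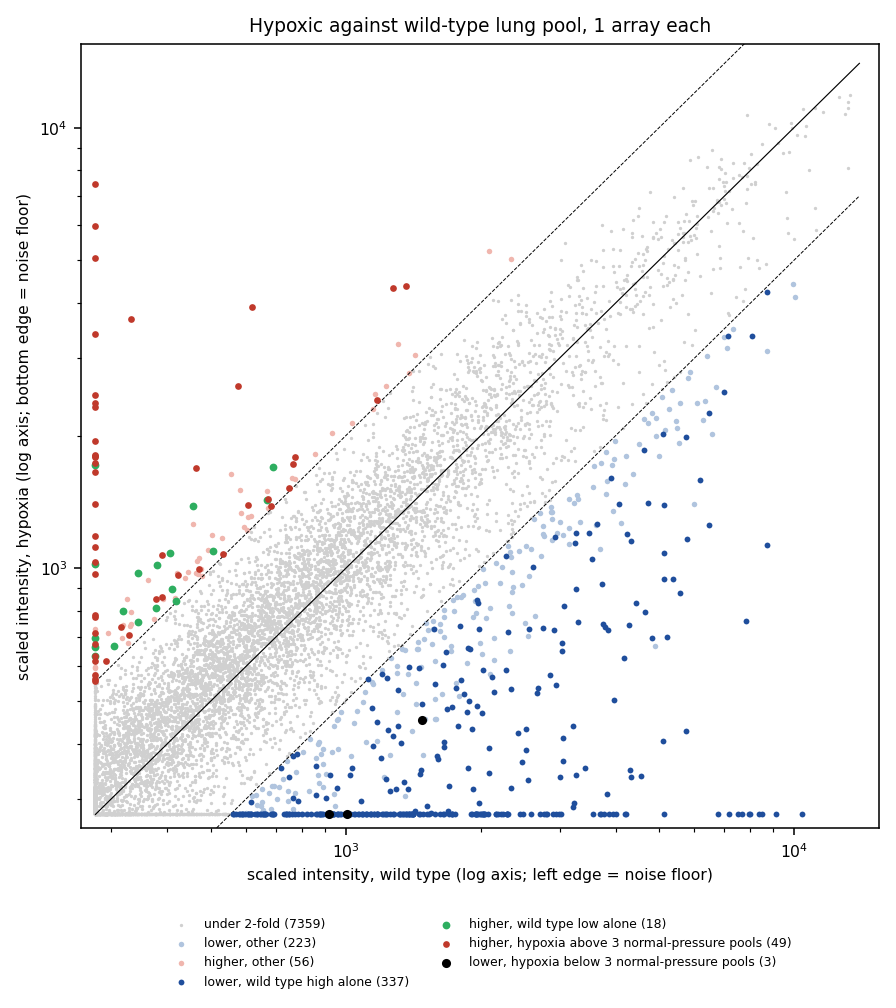
Scaled intensity of the 8045 measured genes in the wild-type pool (horizontal log axis) against the hypoxic pool (vertical log axis). The solid line marks equal values and the dashed lines 2-fold. The 337 genes high in wild type alone run along the bottom edge and below the lower dashed line, and 185 of them lie at the hypoxic floor; the 49 genes above all 3 normal-pressure pools include a column at the left edge, where wild type was at the floor.

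The genes high in wild type alone were led by genes of the renal tubule. Miox, the kidney enzyme that breaks down myo-inositol, had an intensity of 10416 in wild type and was at the floor in the 4 other pools, at least 37.7-fold lower in hypoxia. Klk1, renal kallikrein, was at 9101 in wild type and at the floor elsewhere, at least 32.9-fold lower. These are differences of 1 pool from all others. Slc27a2, a fatty acid transporter, was at 7996, Slc34a1, the phosphate carrier of the proximal tubule, at 7944, and Fbp1, an enzyme of gluconeogenesis, at 7647 in wild type. Umod, uromodulin of the thick ascending limb, was at 7500 in wild type. All 4 were at the floor in each other pool, at least 28.9-fold, 28.8-fold, 27.7-fold and 27.1-fold lower in hypoxia in that order. Among genes of the class on none of the lists, Acsm2 stood at 8496, Ugt2b38 at 8364, Dnase1 at 7158 and Acy3 at 6767 in wild type, with the 4 other pools at the floor, though another of the 4 probe sets of Acsm2 gave a log2 ratio of -0.02.

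Of the 43 genes listed for the proximal tubule, 32 were measured, 24 were lower and 23 were high in wild type alone, with a median log2 ratio of -2.87 to wild type and 0 to the transgenic mean. The summed intensity of these 32 genes was 120240 in wild type and from 20038 to 26117 in the other pools, genes at the floor being counted at the floor. Of 42 genes listed for distal nephron and glomerulus, 25 were measured, 12 were lower and 11 were high in wild type alone, among them the epidermal growth factor gene Egf (348 in hypoxia, 4301 in wild type, at the floor or at 327 in the others) and the sodium chloride carriers Slc12a1 and Slc12a3, both at the hypoxic floor. The sum over the 25 genes was 51429 in wild type and from 13176 to 16431 in the others. The water channel Aqp1, also an endothelial gene, stood at 7193 in hypoxia and 7003 in wild type. Cyp4b1, a cytochrome that is abundant in lung too, stood at 4128 in hypoxia, 10063 in wild type, 6088 in the BMPR2delx4+ pool without doxycycline, 5652 in the SM22-rtTA pool and 4870 in the induced pool.

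Adrenal, liver and pancreas or gut genes were fewer. Of 21 adrenal genes listed, 14 were measured, 7 were lower and 6 were high in wild type alone. Star, which carries cholesterol into mitochondria for steroid synthesis, was at 2164 in wild type and at the floor in the other pools, at least 7.84-fold lower in hypoxia. The steroid 21-hydroxylase Cyp21a1 was at 1883 in wild type and 500 in hypoxia, and at the floor in the 3 other pools, and Hsd3b1 was at 1910, 432 and the floor in the same way. Chga and Chgb, granins of the adrenal medulla, were at 1257 and 1951 in wild type only. Of 26 liver genes, 13 were measured, 4 were lower and 3 were high in wild type alone. Albumin, Alb, was at 2894 in wild type and at the floor elsewhere, at least 10.5-fold lower in hypoxia, while Ttr was at 445 in hypoxia and 432 in wild type. Of the 10 measured thyroid, pancreas and gut genes, Cela1 and Vil1 were high in wild type alone, at 1384 and 887 against the floor.

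The class held no gene of the lung structure lists. Of its 337 genes, 45 were on the lists of other tissues, 12 on another list and 280 on none. In 185 genes hypoxia was at the floor, and in 154 all 4 other pools were. Kap, the kidney androgen-regulated protein, had an intensity of 1255 in hypoxia and 6471 in wild type, against 555, 483 and 478 in the others. Slc22a8, a renal organic anion transporter, stood at 588 in hypoxia and 2282 in wild type, against 281 in the BMPR2delx4+ pool without doxycycline and the floor in the other 2. The hypoxic pool was the highest of the 4 other pools in 57 of the 337 genes and the induced pool in 73. The BMPR2delx4+ pool without doxycycline was the highest in 28 and the SM22-rtTA pool in 25. In the 154 genes at the floor in all 4, no pool was the highest. With the values as deposited the 4 counts were 43, 78, 32 and 31 in that order. The hypoxic and induced pools had the higher counts both ways.

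Promoter windows are shown for 3 leading genes of the class, all 3 of them genes of the renal tubule. Most genes of the class were on no list, so a shared tissue is not shown for the class as a whole. The transcription factor HNF1, which is active in kidney and liver, binds sites that hold the letters GTTAAT. The sequences are RefSeq's on GRCm38.p6, from 250 bases before to 50 bases after the start, with GTTAAT or its reverse complement ATTAAC in capitals. Miox lies at chr15:89334223-89334522, plus strand, Slc34a1 at chr13:55399398-55399697, plus strand, and Umod at chr7:119479213-119479512, minus strand.
Miox: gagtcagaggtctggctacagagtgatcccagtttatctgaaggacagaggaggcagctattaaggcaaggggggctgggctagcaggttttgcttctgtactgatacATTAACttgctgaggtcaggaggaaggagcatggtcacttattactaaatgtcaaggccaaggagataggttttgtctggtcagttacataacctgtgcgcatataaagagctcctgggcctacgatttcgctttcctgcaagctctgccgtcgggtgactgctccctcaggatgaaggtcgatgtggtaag
Slc34a1: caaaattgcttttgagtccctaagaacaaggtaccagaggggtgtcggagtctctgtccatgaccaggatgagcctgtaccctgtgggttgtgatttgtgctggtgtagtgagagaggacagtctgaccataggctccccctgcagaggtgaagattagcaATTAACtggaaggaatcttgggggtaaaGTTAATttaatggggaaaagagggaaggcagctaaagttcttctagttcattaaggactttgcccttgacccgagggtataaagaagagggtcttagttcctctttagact
Umod: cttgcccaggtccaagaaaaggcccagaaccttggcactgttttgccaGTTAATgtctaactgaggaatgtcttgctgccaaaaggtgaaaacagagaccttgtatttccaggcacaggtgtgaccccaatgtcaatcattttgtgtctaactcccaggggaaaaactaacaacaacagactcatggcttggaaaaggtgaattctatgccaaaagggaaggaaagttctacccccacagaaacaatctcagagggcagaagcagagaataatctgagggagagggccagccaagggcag

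These letters were chosen for the search after the genes were known. On either strand they stood in 9 of 45 windows of the proximal tubule list (20.0%), in 40 of 347 windows of the genes high in wild type alone (11.5%), in 4.62% of windows of all measured genes and in 7.10% of all 32851 windows. Of the 337 genes, 273 had a window. A match is a description of the letters and not a binding site.

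Genes of mitochondria made up a second, broader part of the lower genes. All 45 measured subunits and carriers on the list of oxidative phosphorylation were below 0, 27 of them past 2-fold, with a median log2 ratio of -1.07 to wild type and 0.00 to the transgenic mean. Wild type was the highest of the 5 pools in 44 of the 45, and none met the rule for wild type alone. Ndufs1, a subunit of complex I, had an intensity of 575 in hypoxia, 2100 in wild type, 848 in the BMPR2delx4+ pool without doxycycline, 809 in the SM22-rtTA pool and 1481 in the induced pool. Uqcrfs1, the Rieske protein of complex III, stood at 1266, 4118, 1140, 1267 and 2434 in that order. Cytochrome c, Cycs, stood at 1924, 5532, 1499, 1120 and 2883. The hypoxic pool thus lay near the transgenic normal-pressure pools, with the induced pool between these and wild type. Ndufs1 and Ndufa10, another complex I subunit, were 3.65-fold and 3.34-fold lower in hypoxia than in wild type, although a second probe set of Ndufa10 gave a log2 ratio of 0.

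The 34 measured genes of the TCA cycle and fat oxidation were all below 0, 23 past 2-fold and 4 high in wild type alone, with medians of -1.18 to wild type and -0.08 to the transgenic mean. Suclg2, a succinyl-CoA ligase subunit, stood at 353 in hypoxia and 1871 in wild type, 5.30-fold lower, against 387, 442 and 576 in the other pools. Acadm, the medium-chain acyl-CoA dehydrogenase, stood at 1583 and 6175, against 1512, 1552 and 3034. Ribosomal protein genes, by contrast, had a median of 0.01. None of 24 was past 2-fold, against 1.53% higher and 7.00% lower over all measured genes, so this count says little. The kidney, adrenal and liver genes that moved with these mitochondrial genes are given above, and their part was not tested.

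Genes of fat were shared by wild type and a second pool. Of 33 listed, 21 were measured, 11 were lower and none was high in wild type alone. Ucp1, the uncoupling protein of brown fat, was at the floor in hypoxia, at 797 in wild type, at the floor in both transgenic normal-pressure pools and at 1600 in the induced pool. Cidea, a lipid droplet protein, followed with the floor, 1259, the floor and 1582. Gpd1, glycerol-3-phosphate dehydrogenase, stood at 667 in hypoxia, 4910 in wild type, 586 and 554 in the transgenic normal-pressure pools and 3982 in the induced pool, though at least 1 of its 4 probe sets gave a log2 ratio of 0. The fat hormone Adipoq stood at 792 in hypoxia and 1957 in wild type, against 453, 811 and 1270. The sum over the list was 27617 in hypoxia, 53665 in wild type and 46601 in the induced pool, against 21045 in the BMPR2delx4+ pool without doxycycline and 24446 in the SM22-rtTA pool.

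**Figure D2:**
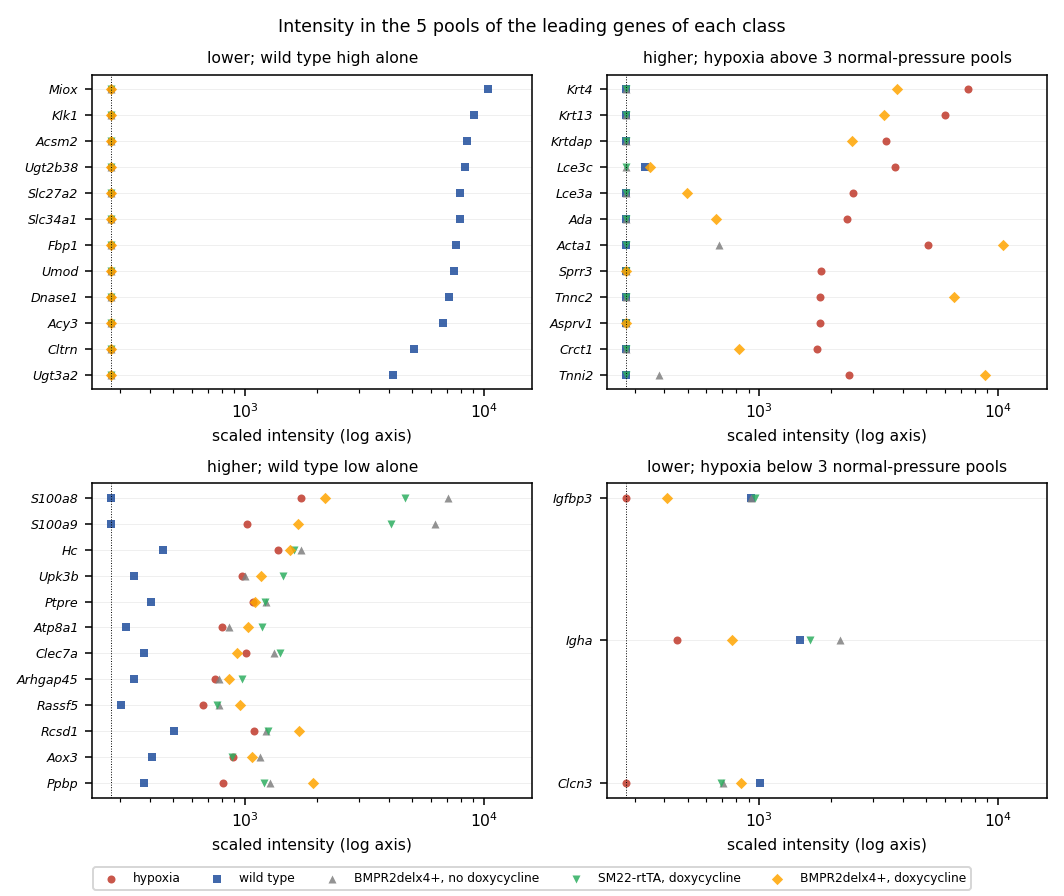
Scaled intensity (log axis) in the 5 pools for the leading genes of each class, up to 12 a class, with the noise floor as a dotted line. In the upper left panel the wild-type squares stand alone at the right, in the upper right panel the hypoxic circles lie above the 3 normal-pressure pools and the induced pool often does too, and in the lower left panel wild type lies alone at the left.

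The highest ratios of hypoxia to wild type were those of genes of stratified squamous epithelium, which lines the oesophagus and the skin. Of 32 listed genes, 22 were measured and 13 were higher, all 13 of them above the 3 normal-pressure pools, with medians of 1.48 to wild type and 1.71 to the transgenic mean. Krt4, a keratin of internal squamous layers, had an intensity of 7459 in hypoxia, was at the floor in the 3 normal-pressure pools and stood at 3748 in the induced pool, at least 27.0-fold higher in hypoxia than in wild type. Its partner keratin Krt13 stood at 5984 in hypoxia, at the floor in those 3 pools and at 3333 in the induced pool, at least 21.7-fold higher, and its second probe set gave a log2 ratio of 0.58. Krtdap, a protein of differentiating keratinocytes, stood at 3395 in hypoxia and 2448 in the induced pool, and at the floor in the other 3. Both raised-pressure pools held these transcripts, and the normal-pressure pools had them at the floor.

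Several genes of the last steps of cornification were high in the hypoxic pool alone. Lce3c, a late cornified envelope protein, stood at 3688 in hypoxia, 332 in wild type, the floor in both transgenic normal-pressure pools and 349 in the induced pool, 11.1-fold higher than in wild type. Lce3a stood at 2471 in hypoxia and 498 in the induced pool. Sprr3, a small proline-rich envelope protein, and Asprv1, a protease of the cornified layer, stood at 1807 and 1793 in hypoxia and at the floor in all 4 other pools. Lor, loricrin, stood at 3917 in hypoxia, 618 in wild type, 886, 877 and 2843 in the others, but its 3 probe sets ran from a log2 ratio of -1.86 to 2.67, so its direction was not settled. Ada, adenosine deaminase, which was on no list, stood at 2329 in hypoxia and 657 in the induced pool, and at the floor in the rest. The sum over the squamous list was 41263 in hypoxia and 23328 in the induced pool, against 7623 to 8826 in the normal-pressure pools.

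Promoter windows of Krt13 and Krtdap are shown because these genes were at the floor in every normal-pressure pool. AP-1 is a factor of keratinocyte differentiation whose usual site is TGACTCA or TGAGTCA. The letters searched, TGANTCA, allow any middle base and are wider than that site. Krtdap holds TGAGTCA, whereas the match in Krt13 is TGAATCA, which lies outside the usual site. The letters, which read the same way on both strands, are in capitals. The RefSeq windows on GRCm38.p6 are chr11:100121517-100121816, minus strand, 1 of 2 windows for Krt13, and chr7:30787655-30787954, plus strand.
Krt13: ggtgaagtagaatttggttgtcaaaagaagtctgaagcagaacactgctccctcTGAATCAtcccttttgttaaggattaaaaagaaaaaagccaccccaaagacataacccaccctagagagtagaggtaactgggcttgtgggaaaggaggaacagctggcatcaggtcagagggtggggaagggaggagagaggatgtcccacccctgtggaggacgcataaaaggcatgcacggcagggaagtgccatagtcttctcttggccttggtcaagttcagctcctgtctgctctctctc
Krtdap: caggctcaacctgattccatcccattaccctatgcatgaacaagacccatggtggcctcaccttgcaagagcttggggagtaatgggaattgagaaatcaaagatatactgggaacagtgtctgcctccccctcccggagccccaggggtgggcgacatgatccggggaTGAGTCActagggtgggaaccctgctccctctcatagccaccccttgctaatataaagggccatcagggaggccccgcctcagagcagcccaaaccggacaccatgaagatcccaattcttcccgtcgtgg

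TGANTCA stood in 9 of 20 windows of the squamous list (45.0%), in 11 of 47 windows of the 49 genes above all normal-pressure pools (23.4%), in 5.80% of windows of measured genes and in 7.81% of all windows. These shares count every middle base and so include matches outside the usual AP-1 site. This search, too, was chosen after the genes were known.

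Skeletal muscle genes came next, and those that were higher in hypoxia were higher still in the induced pool. Of 32 listed genes, 19 were measured, 9 were higher and 1, Pvalb, was lower. Acta1, skeletal muscle actin, had an intensity of 5064 in hypoxia, the floor in wild type, 677 in the BMPR2delx4+ pool without doxycycline, the floor in the SM22-rtTA pool and 10435 in the induced pool. The fast troponins Tnni2 and Tnnc2 stood at 2367 and 1799 in hypoxia, the floor in wild type, and 8770 and 6493 in the induced pool. Creatine kinase, Ckm, stood at 2590 in hypoxia, 575 in wild type, 799 and 530 in the transgenic normal-pressure pools and 10428 in the induced pool. The list sum was 23883 in hypoxia, 8850 to 10111 in the normal-pressure pools and 89828 in the induced pool.

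Heart genes as a list were level in median and sum between hypoxia and the normal-pressure pools. Of 25 measured, 2 were higher, Myl3 and Mb, which skeletal muscle also makes, and 2 were lower, Fabp3 and Cox7a1. The shares over all measured genes were 1.53% and 7.00%. Hypoxia was the lowest of the 5 pools in 10 of the 25, against 15.9% of all measured genes. The atrial light chain Myl7 stood at 1390 in hypoxia and 1794 in wild type, and the atrial peptide gene Nppa at 417 and 560. The list median was -0.09 to wild type and -0.13 to the transgenic mean, and its sum of 21647 in hypoxia lay within the 21201 to 22355 of the normal-pressure pools, the induced pool being at 68565. Of the 49 genes above all normal-pressure pools, 24 were on the squamous, skeletal muscle or heart lists, 22 were on no list, and 43 were above the floor in the induced pool too.

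A few other genes made by epithelia were in the same class. Slpi, a secreted inhibitor of neutrophil proteases, had an intensity of 4364 in hypoxia, 1365 in wild type, 1864 and 1822 in the transgenic normal-pressure pools and 1353 in the induced pool, 3.20-fold higher than in wild type. Here the hypoxic pool alone was high. Fabp5, a fatty acid binding protein of epidermis and macrophages, stood at 4319, 1271, 1620, 1984 and 3116 in that order. The aldehyde dehydrogenase Aldh3a1, abundant in squamous and corneal epithelium, stood at 1686, 463, 795, 516 and 1473. The squamous genes given above were high in the same pool, and their part was not tested.

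The 3 genes low in hypoxia against every normal-pressure pool had no common role. Igfbp3, a binding protein of insulin-like growth factors, was at the floor in hypoxia and at 919 in wild type, 921 in the BMPR2delx4+ pool without doxycycline, 961 in the SM22-rtTA pool and 409 in the induced pool, at least 3.33-fold lower than in wild type. Its 3 normal-pressure values were almost the same. Igha, the heavy chain of secretory immunoglobulin A, stood at 453 in hypoxia, 1477 in wild type, 2178 and 1624 in the transgenic normal-pressure pools and 768 in the induced pool, and its 3 probe sets all gave lower values in hypoxia, with log2 ratios from -1.77 to -1.15. Clcn3, a chloride-proton exchanger of intracellular membranes, was at the floor in hypoxia and at 1006, 704, 692 and 836 in the other pools. The count was between 1 and 10 under the other settings at 2-fold, and 48 at 1.5-fold.

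Genes low in wild type alone included genes of neutrophils and of mesothelium. S100a8 and S100a9, the calprotectin subunits of neutrophils, stood at 1720 and 1020 in hypoxia and at the floor in wild type, at least 6.23-fold and 3.69-fold higher. Against the transgenic pools they were not high, since the BMPR2delx4+ pool without doxycycline had 7120 and 6283, the SM22-rtTA pool 4672 and 4095, and the induced pool 2174 and 1675. Il1b, the inflammatory cytokine interleukin-1 beta, stood at 693 in hypoxia, the floor in wild type, 2126, 594 and 562. Of 11 measured neutrophil genes, 4 were higher in hypoxia than in wild type, with a median of 0.48, and the median to the transgenic mean was -0.02.

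Hc, complement component C5, stood at 1382 in hypoxia, 457 in wild type, 1726 and 1606 in the transgenic normal-pressure pools and 1547 in the induced pool, 3.02-fold higher than in wild type. Retnla, a secreted protein of alternatively activated macrophages and airway epithelium that is known to rise in hypoxic lung, stood at 1695 in hypoxia and 686 in wild type, 2.47-fold higher, but at 1805, 1402 and 1915 in the other pools. The hypoxic value of each gene lay near the transgenic ones. Upk3b and Msln, genes of the mesothelium that covers the lung, stood at 978 and 632 in hypoxia, at 344 and the floor in wild type, and from 590 to 1439 in the other pools. Foxa2, a transcription factor of lung epithelium, stood at 842 in hypoxia, 418 in wild type, 1124, 947 and 947.

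Genes of the lung's own cells differed little once the other controls were used. Of 197 genes on the 8 lung structure lists, 158 were measured, and 8 were higher in hypoxia than in wild type and 3 were lower. The shares over all measured genes were 1.53% higher and 7.00% lower. None of the 158 met the rule for hypoxia above or below all normal-pressure pools, which 0.609% and 0.0373% of measured genes met. Of the 158, 130 were above 0, against 56.9% of all measured genes, with a median log2 ratio of 0.37 to wild type, which was -0.07 with the arrays scaled to these same genes. To the transgenic mean the median was 0.03, and wild type to that mean was -0.29. Hypoxia was within 1.5-fold of the transgenic mean in 148 of the 158, against 82.8% of all measured genes. Wild type itself was below both transgenic normal-pressure pools in 102 of the 158 genes.

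**Figure D3:**
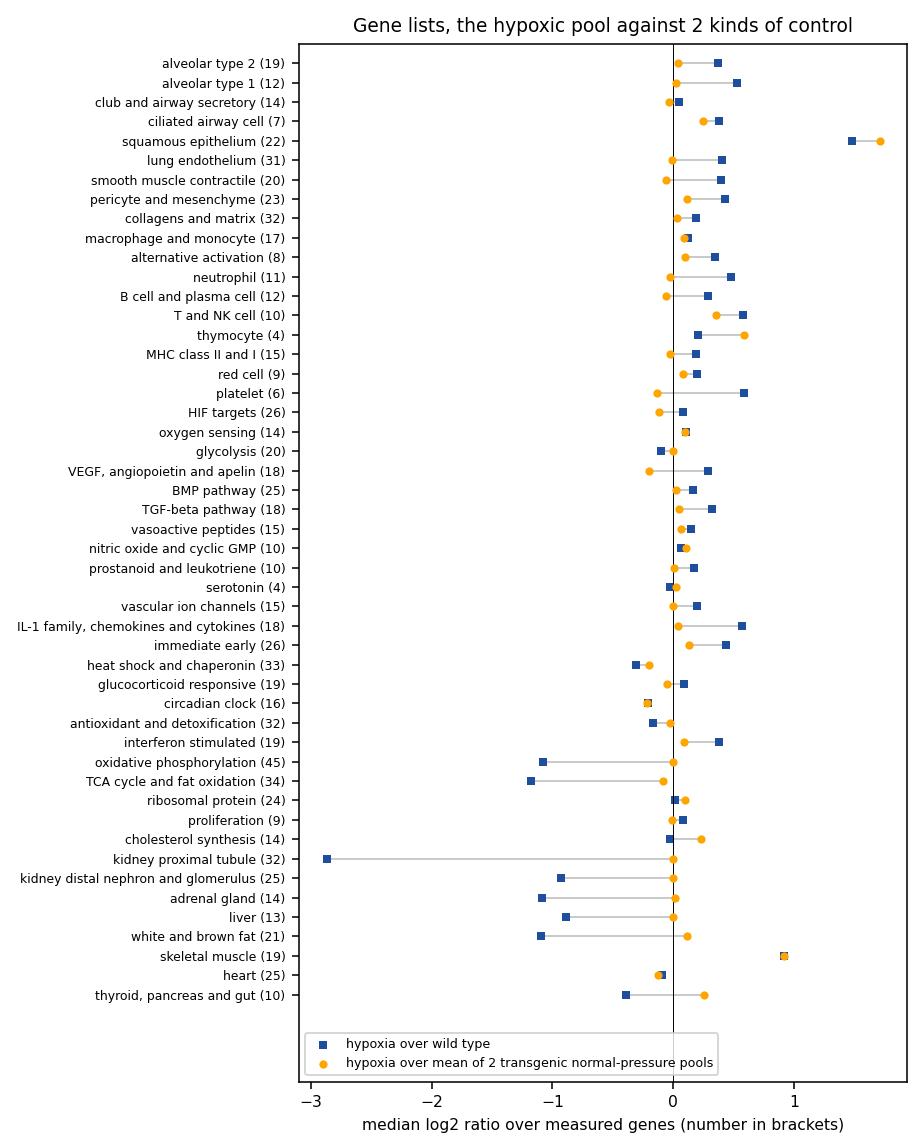
Median log2 ratio of each gene list for hypoxia over wild type (squares) and over the mean of the 2 transgenic normal-pressure pools (circles), with the number of measured genes in brackets; the comparisons share the hypoxic array. Kidney, adrenal, liver, fat and mitochondrial lists lie left of 0 against wild type and near 0 against the transgenic pools, while squamous epithelium and skeletal muscle lie right of 0 against both.

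By cell type, the 19 measured alveolar type 2 genes had a median of 0.37 to wild type and 0.04 to the transgenic mean. Lpcat1, which makes surfactant lipid, stood at 5031 in hypoxia, 2335 in wild type and from 4494 to 5041 in the others, and its 3 probe sets gave log2 ratios of 1.11 to 1.22. Napsa, the protease that matures surfactant protein B, went the other way, at 3163 in hypoxia, 7080 in wild type, 2936, 3549 and 1452. In both genes wild type stood apart and hypoxia did not. The 12 alveolar type 1 genes were all above 0, with medians of 0.53 and 0.02, and Igfbp2, a marker of mature type 1 cells, stood at 5240, 2084, 3728, 3888 and 2712, 2.51-fold higher than in wild type. Of 14 airway secretory genes, 2 were lower, the antimicrobial proteins Bpifa1 (704 in hypoxia, 2555 in wild type, 1331, 1008 and 1129) and Bpifb1 (405, 1176, 708, 547 and 981), and hypoxia was the lowest of the 5 pools in both. A second probe set of Bpifb1 gave a log2 ratio of 0. Foxj1, the regulator of ciliated cells, stood at 1498 in hypoxia, 1149 in wild type, 888 and 588 in the transgenic normal-pressure pools and 947 in the induced pool.

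In the vessel wall, 29 of 31 measured endothelial genes were above 0 against wild type, with medians of 0.40 to wild type, -0.04 when scaled to lung genes, and -0.01 to the transgenic mean. The endothelial, smooth muscle and matrix lists belong to the set that fixes the scaling to lung genes. Their medians under it are therefore partly set by design. Pecam1, an adhesion molecule of endothelial junctions, was the only endothelial gene past 2-fold, at 3228 in hypoxia, 1308 in wild type, 2619, 2539 and 1501, while Cdh5 differed by a log2 ratio of 0.11. Contractile genes of smooth muscle, which thickens the arteries in chronic hypoxia, had medians of 0.40, -0.03 when scaled to lung genes, and -0.06 to the transgenic mean, with 1 of 20 past 2-fold. Acta2, smooth muscle actin, stood at 3720 in hypoxia, 2711 in wild type, 5234 in the BMPR2delx4+ pool without doxycycline, 3238 in the SM22-rtTA pool and 5655 in the induced pool. Tagln, the gene whose promoter is SM22, stood at 2941, 2221, 3633, 2768 and 3915. The hypoxic value lay inside the range of the normal-pressure pools for both. Pericyte genes had medians of 0.43 and 0.11, with Higd1b (796 in hypoxia, 331 in wild type, 594, 582 and 446) and Col13a1 (1239, 591, 1054, 1214 and 424) past 2-fold.

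Matrix genes had none of 32 past 2-fold, against 1.53% higher and 7.00% lower over all measured genes, so this count says little. Their medians were 0.19 to wild type, -0.25 when scaled to lung genes, and 0.03 to the transgenic mean. Lox, which crosslinks collagen and elastin, stood at 2399 in hypoxia, 1211 in wild type, 3518, 2206 and 1754, just inside 2-fold with a log2 ratio of 0.99. Elastin, Eln, stood at 2526, 1402, 2018, 2156 and 1700, and was highest in hypoxia. The fibrillar collagens Col1a1 and Col3a1 had log2 ratios of -0.15 and -0.19.

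No listed target of HIF was 2-fold higher in hypoxia, against 1.53% of all measured genes. At that share a list of this size can hold none, so the count says little about these targets. Of 36 such genes, 26 were measured and 3 were lower, against 7.00% of all measured genes. The medians were 0.08 to wild type and -0.12 to the transgenic mean, and the first of these was -0.32 when scaled to lung genes. The highest ratio in the list was a log2 value of 0.39. Vegfa, the endothelial growth factor, stood at 2186 in hypoxia, 1758 in wild type, 2015, 2107 and 1841 in the others. The glucose transporter Slc2a1 stood at 658, 696, 646, 491 and 586. Egln3, a HIF hydroxylase and sensitive HIF target, was at 284 in hypoxia and at the floor in the 3 normal-pressure pools. Vegfa and Slc2a1 in hypoxia lay within 1.5-fold of wild type, and Egln3 lay at the edge of detection.

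The 3 lower HIF targets were of 2 kinds. Ndrg1, a stress-response gene, stood at 695 in hypoxia, 4835 in wild type, 860, 630 and 739, and its 5 probe sets gave log2 ratios from -3.12 to -2.80. Car12, a carbonic anhydrase, was at 748 in wild type and at the floor in all other pools. Both were high in wild type alone, and both are also made by kidney, whose markers are given above. The part of kidney RNA in these 2 differences was not tested. Igfbp3 was the gene low in hypoxia against all normal-pressure pools. The HIF subunit gene Epas1, which encodes HIF-2 alpha, stood at 3212 in hypoxia and 2416 in wild type, between 1542 and 4613 in the transgenic normal-pressure pools, and Hif1a stood at 907 and 890.

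The window of Slc2a1 is shown as a HIF target that holds the core of the hypoxia response element and did not differ. The core is ACGTG or GCGTG, on either strand, in capitals, in the RefSeq window chr4:119108495-119108794, plus strand, GRCm38.p6.
Slc2a1: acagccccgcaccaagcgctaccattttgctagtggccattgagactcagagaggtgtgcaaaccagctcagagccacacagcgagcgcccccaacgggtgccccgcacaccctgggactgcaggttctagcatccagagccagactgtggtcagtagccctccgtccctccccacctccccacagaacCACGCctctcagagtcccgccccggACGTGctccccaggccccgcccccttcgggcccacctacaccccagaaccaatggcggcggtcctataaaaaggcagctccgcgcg

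The core stood in 30 of 37 windows of the HIF target list (81.1%), in 60.3% of windows of measured genes and in 43.8% of all windows. It overlaps the E-box CACGTG. Among windows of the 49 genes above all normal-pressure pools it stood in 16 of 47 (34.0%).

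Glycolysis genes were split by the pool that carried them. Of 20 measured, 5 were lower and 1 was higher, against 7.00% and 1.53% of all measured genes. The median was -0.10 to wild type and -0.01 to the transgenic mean. Ldhb, the lactate dehydrogenase subunit of oxidative tissue, stood at 1400 in hypoxia, 5982 in wild type, 1944, 1800 and 3022. The phosphoglycerate kinase Pgk1 stood at 2160, 5461, 2456, 1794 and 3466, and Tpi1 at 1635, 4384, 1587, 1200 and 2917. In all 3 wild type was the highest and hypoxia was near the transgenic normal-pressure pools. The 1 higher gene was Eno3, the muscle enolase, at 738 in hypoxia, 315 in wild type and 4392 in the induced pool.

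**Figure D4:**
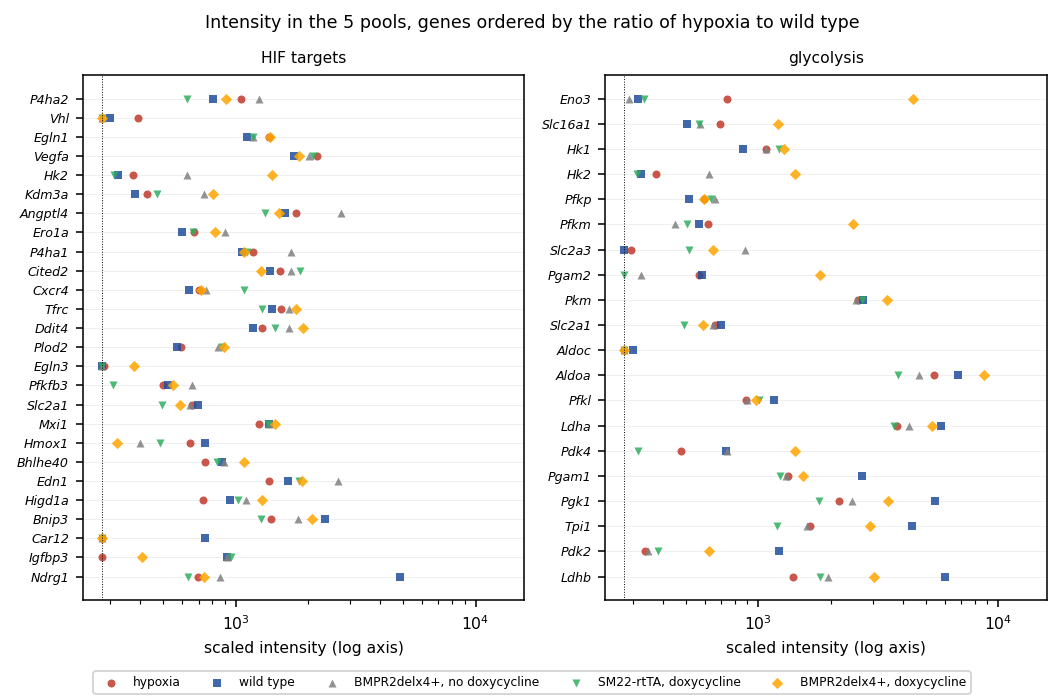
Scaled intensity (log axis) in the 5 pools for the 26 measured HIF targets and 20 glycolysis genes, ordered from the highest to the lowest ratio of hypoxia to wild type, with the noise floor dotted. Most hypoxic circles lie among the other pools; the wild-type squares stand to the right for Ndrg1, Car12 and the lower glycolysis genes.

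Genes that set vascular tone and growth were mostly inside 2-fold of wild type. None of the 15 vasoactive peptide genes, 10 nitric oxide genes, 10 prostanoid genes, 15 ion channel genes, 18 genes of the VEGF, angiopoietin and apelin list or 18 TGF-beta genes measured was past 2-fold. Over all measured genes 1.53% were higher and 7.00% were lower, so the lack of a call in any single list this short says little. Edn1, endothelin 1, a constrictor that is known to rise in hypoxic lung, stood at 1373 in hypoxia, 1648 in wild type, 2662, 1838 and 1884, and was lowest in hypoxia. The VEGF receptor Kdr stood at 2486 in hypoxia, 1728 in wild type, 2847, 4112 and 3212. The apelin receptor Aplnr stood at 3204 in hypoxia, 2223 in wild type, 2567, 2491 and 1983, and was highest in hypoxia. In the BMP list 1 of 25 genes was past 2-fold, Id2, which was high in wild type alone at 2282 against 1064 in hypoxia, though at least 1 of its 3 probe sets gave a log2 ratio of 0. Id1, a direct BMP target, stood at 3153 in hypoxia and 2837 in wild type. Bmpr2 itself was at the floor in both pools.

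Inflammation-related genes gave the 4 higher members of the cytokine list, Slpi, Il1b, Lcn2 and Il1rn, of 18 measured. Lcn2, an iron-sequestering protein of neutrophils and epithelium, stood at 976 in hypoxia, 463 in wild type, 900, 634 and the floor in the induced pool. Il1rn, the interleukin-1 receptor antagonist, stood at 1592 in hypoxia, 771 in wild type, 867, 966 and 645, and its 3 probe sets ran from a log2 ratio of -0.41 to 1.05. Chil3, a chitinase-like protein of alternatively activated macrophages, stood at 2807 in hypoxia, 1459 in wild type, 439 and 1011 in the transgenic normal-pressure pools and 318 in the induced pool. It was inside 2-fold of wild type, with a log2 ratio of 0.94, and at 2.08 to the transgenic mean. Among the 10 measured T and NK cell genes 1 was past 2-fold, Gzma, a granzyme, at 940, 362, 674, 836 and 489.

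The remaining lists differed in how many genes were past 2-fold. Of 32 antioxidant genes, 5 were lower and 1, Aldh3a1, was higher, against 7.00% and 1.53% of all measured genes. Gclm, a subunit of the enzyme of glutathione synthesis, stood at 428 in hypoxia, 1404 in wild type, 572, 707 and 625, and the mitochondrial superoxide dismutase Sod2 at 1436, 3303, 1231, 1262 and 1859, so wild type was the highest pool for both. None of 9 red cell genes, 14 oxygen-sensing genes, 19 interferon-stimulated genes or 4 serotonin genes was past 2-fold. Cyp51 and Hmgcs1, enzymes of cholesterol synthesis, were high in wild type alone, at 1172 and 3914 against the floor and 1606 in hypoxia. Of the 17 macrophage and monocyte genes 2 were lower, Fabp4 and Lpl, which fat cells make as well: Fabp4 stood at 2168 in hypoxia, 6266 in wild type, 1091, 1457 and 3521. The part of fat in these 2 differences was not tested. Alas2, the haem enzyme of red cell precursors, stood at 1654 in hypoxia and 1416 in wild type.

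Immediate early genes are switched on within minutes of a stimulus. Of 26 measured immediate early genes, 4 were higher and none lower, against 1.53% and 7.00% of all measured genes. The medians were 0.44 to wild type and 0.13 to the transgenic mean. Gadd45b stood at 1311 in hypoxia, 604 in wild type, 1501, 854 and 1277, and Socs3 at 597, the floor, 648, 637 and 425. For both, wild type was the lowest pool. Junb, an AP-1 subunit, stood at 2482 in hypoxia and from 1164 to 1491 in all others, and Nr4a1, a nuclear receptor induced by stimuli, at 4059 and from 2153 to 2786. For these it was hypoxia that stood above the other 4 pools.

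Heat shock and chaperonin genes ran the other way. Of 33 measured, 7 were lower and none higher, against 7.00% and 1.53% of all measured genes. At the second share a list of this size can hold no higher gene. The medians were -0.31 to wild type and -0.20 to the transgenic mean, and 28 genes were below 0. Hspa1b, the inducible HSP70, stood at 2020 in hypoxia, 6566 in wild type, 4820, 2618 and 4040. The mitochondrial chaperonins Hspe1 and Hspd1 stood at 778 and 1803 in hypoxia, 2638 and 5006 in wild type, 1956 and 2957 in the BMPR2delx4+ pool without doxycycline, 1164 and 2229 in the SM22-rtTA pool, and 1873 and 2716 in the induced pool. Hypoxia was the lowest of the 5 pools for all 3, as it was in 13 of the 33 genes, against 15.9% of all measured genes. Dnajc12, a cochaperone, was instead high in wild type alone, at 3226 against 294 in hypoxia and 393 to 462 elsewhere.

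The Hspe1 window is shown for its heat shock elements, 3 alternating GAA and TTC blocks with 2 free bases between blocks, searched on either strand. The overlapping matches are in capitals. The window lies at chr1:55087898-55088197, plus strand, RefSeq, GRCm38.p6.
Hspe1: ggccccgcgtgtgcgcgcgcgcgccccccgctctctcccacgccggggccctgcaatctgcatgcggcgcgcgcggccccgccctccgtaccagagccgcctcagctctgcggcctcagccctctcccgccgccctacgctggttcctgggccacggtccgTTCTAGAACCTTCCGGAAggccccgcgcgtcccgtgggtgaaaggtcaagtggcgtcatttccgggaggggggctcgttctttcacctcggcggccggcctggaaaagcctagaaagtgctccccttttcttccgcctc

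Such an element stood in 4 of 36 windows of the heat shock list (11.1%) and in 0.603% of all windows. Of the other motifs searched, the CArG box of serum response factor stood in 5 of 29 windows of the immediate early list (17.2%) and in 1.63% of all windows, the cyclic AMP response element in 2 of those 29 (6.90%) and in 1.79% of all, and the E-box in 6 of 26 windows of the clock list (23.1%) and in 7.15% of all.

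Some clock genes differed between pools. Of 16 measured, 2 were lower in hypoxia and none higher, against 7.00% and 1.53% of all measured genes. The median was -0.21 to wild type, which was 0.00 with the probe sets of a gene averaged, and -0.21 to the transgenic mean. Hypoxia was within 1.5-fold of the transgenic mean in 13 of the 16, against 82.8% of all measured genes. Dbp, a clock output factor with a steep daily rhythm, stood at 791 in hypoxia, 2349 in wild type, 1303 in the BMPR2delx4+ pool without doxycycline, 373 in the SM22-rtTA pool and 1228 in the induced pool. Hlf, of the same family, stood at the floor, 580, 376, the floor and 525. Tef, another member, stood at 2079, 3182, 2808, 1348 and 3332. In all 3 genes the hypoxic and SM22-rtTA pools were the 2 lowest. Clock ran in reverse, at 321 in wild type, 521 in hypoxia and from 532 to 624 elsewhere, though a second probe set gave a log2 ratio of 0. The time of day at which lungs were taken is not in the labels, and its part in the comparison was not tested.

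**Figure D5:**
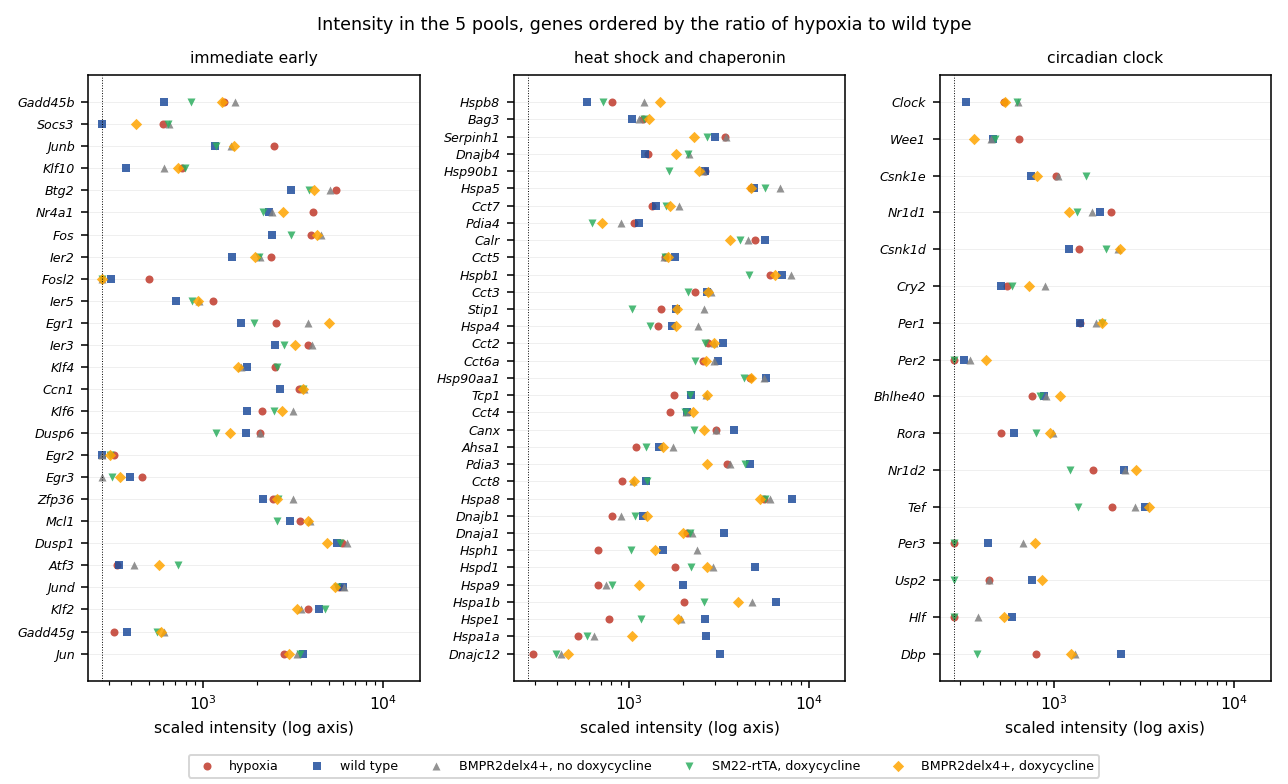
Scaled intensity (log axis) in the 5 pools for the measured immediate early, heat shock and chaperonin, and clock genes, ordered from the highest to the lowest ratio of hypoxia to wild type, with the noise floor dotted. Hypoxic circles lie to the left of the other pools for Hspa1b, Hspe1 and Hspd1, and to the right for Junb and Nr4a1.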

How the data were processed

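Whole-lung RNA was hybridised to 5 Affymetrix mouse arrays, 1 pool of RNA per array and condition. The authors deposited linear intensities, with a single value per probe set. How they summarised, background-corrected and scaled them is not given in the sources used here. No deposited intensity was under 50, and 9.85% of hypoxic and 10.9% of wild-type probe sets were at 50. The deposited median intensity was 277 in the hypoxic and 266 in the wild-type array.

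Log2 intensities were shifted to a common median taken from 9046 bright probe sets, those in the upper part (over the 50th percentile) of all arrays, by 0.08 for hypoxia and 0.13 for wild type. Values under the 50th percentile of the pooled scaled values were raised to it, and a ratio with a pool at this floor is a bound, written "at least". Platform annotation, updated by gene ID from a RefSeq table on GRCm38.p6, gave 1 gene for 20380 of 22626 probe sets (20351 matched), several for 691 and none for 1555. The probe set with the highest mean stood for its gene, and 4956 of 12393 genes had more than 1. Among genes with several probe sets, another had the opposite sign in 4 of 44 higher and 14 of 224 lower genes.

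Groups came from the titles. Genes past 2-fold were classed by the pools that set them apart, and 49 gene lists were described by counts and medians. Named genes were the 12 leading genes of each class and up to 4 called members of each list (if none was called, the 2 brightest), without predicted loci, plus any measured member of the hypoxia, pressure, immediate early, heat shock and clock lists and the defining tissue markers. Others, including Xist, Eif2s3y and genes on no list, were chosen after their values were seen. The members and lists were chosen with earlier results of these data known. Comparisons of hypoxia with wild type and with the transgenic pools share the hypoxic array. Scripts used Python 3.11.15, numpy 2.4.6, pandas 2.3.3 and matplotlib 3.10.9 and were tested on simulated data. Alternatives covered scaling, floor, fold, probe-set summary and the pools that set a class.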

Additional observations from a re-analysis of the deposited data

How the results depend on the processing

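Of the 140 genes named by rule, the 112 past 2-fold kept the sign of their ratio in 9 settings of scaling, floor or probe-set summary (1008 values). Of the 28 inside 2-fold, 18 changed sign in at least 1 setting, 6 of them in a setting other than the scaling to lung structure genes. At 1.5-fold there were 653 higher and 1021 lower genes, 602 high in wild type alone, 48 low in hypoxia, 176 low in wild type alone and 157 high in hypoxia, and at 3-fold 28 higher, 278 lower, 208, 3 low in wild type alone and 19 high in hypoxia. With the floor at the 30th percentile the counts were 194 higher, 75 high in hypoxia, 35 low in wild type alone and 6 low in hypoxia, and at the 70th percentile 58, 29, 4 and 1. A pseudocount of 50 in place of the floor gave 7 genes low in hypoxia. Counting each probe set by itself gave 943 lower, 534 high in wild type alone and 10 low in hypoxia. The values as deposited gave 38 genes low in wild type alone and 5 low in hypoxia, a median over all probe sets 5 low in hypoxia, and quantile normalization 29 low in wild type alone. Leaving out the BMPR2delx4+ pool without doxycycline or the SM22-rtTA pool gave 5 and 7 genes low in hypoxia. Alternatives chosen after seeing the data were scaling to lung structure genes, with 41 higher, 1010 lower, 6 low in hypoxia, 5 low in wild type alone and 31 high in hypoxia, and genes with close normal-pressure pools only, with 49 higher and 14 lower. The restriction to close normal-pressure pools by design leaves out genes in which wild type stood apart. No paired analysis was possible because each condition had 1 array. The signal over background limits genes near the floor, where a ratio is only a bound.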
